A study of Mus musculus with 9 samples.

Results

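Autophagy machinery genes encode the proteins that build the autophagosome, the double membrane that carries cytoplasm to the lysosome. They were taken from the count table by gene symbol: every symbol made of Atg followed by a digit, together with Becn1, Ulk1, Ulk2, Map1lc3a, Map1lc3b, Gabarap, Gabarapl1, Gabarapl2, Sqstm1, Pik3c3, Pik3r4, Rb1cc1, Wipi1, Wipi2, Ambra1, Uvrag and Tfeb. This gave 35 genes of the 24454 in the table, and 33 of them had enough counts to be tested. The RNA came from mouse embryos of the ICR strain at the 2-cell stage, and each of the 9 libraries pooled 3 embryos. The drug group, called ZGW serum here, was loaded with high glucose and also received serum of rats carrying the drug named ZGW. The model group, called high glucose here, was loaded with high glucose alone, and the control group had neither treatment named. Each group had 3 libraries. Whether the high glucose and control embryos were given rat serum without the drug is not stated in the labels, so ZGW serum may differ from the other groups in serum as well as in drug. The parents of the embryos are not described either. The p-values here set a difference between groups against the spread between pools within groups, and they speak only for these pools.

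Autophagy is started by a kinase complex built on Rb1cc1, which activates a lipid kinase complex built on Becn1. Lipid marks and membrane then gather at the growing structure, and a pair of ubiquitin-like conjugation reactions attaches ATG8 proteins (the LC3 and GABARAP families) to its lipid, where they bind cargo receptors such as Sqstm1. In mouse embryos autophagy is known to switch on soon after fertilisation, when stored oocyte proteins and RNA are broken down, and mouse embryos with neither maternal nor embryonic Atg5 are known to fail before implantation.

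The promoters of the 3 genes with the most reads per kilobase of exon, Gabarapl2, Map1lc3b and Atg5, are shown because these genes dominate the values that follow. RefSeq gives them for GRCm38.p6 as a window from upstream of the start of transcription to just inside it, at chr8:111940453-111940752 for Gabarapl2, chr8:121590188-121590487 for Map1lc3b and chr10:44268089-44268388 for Atg5, each on the plus strand. Capitals mark the core of a GC box (GGGCGG), an ETS motif (CCGGAAG) or the core of an E-box (CACGTG), read on either strand. A GC box on the other strand appears as CCGCCC.
Gabarapl2: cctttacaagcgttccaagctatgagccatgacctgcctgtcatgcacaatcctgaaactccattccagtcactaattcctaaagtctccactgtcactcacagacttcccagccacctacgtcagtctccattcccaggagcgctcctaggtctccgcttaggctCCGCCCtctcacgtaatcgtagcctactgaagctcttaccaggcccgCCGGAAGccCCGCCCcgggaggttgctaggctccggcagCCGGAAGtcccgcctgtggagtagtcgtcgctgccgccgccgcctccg
Map1lc3b: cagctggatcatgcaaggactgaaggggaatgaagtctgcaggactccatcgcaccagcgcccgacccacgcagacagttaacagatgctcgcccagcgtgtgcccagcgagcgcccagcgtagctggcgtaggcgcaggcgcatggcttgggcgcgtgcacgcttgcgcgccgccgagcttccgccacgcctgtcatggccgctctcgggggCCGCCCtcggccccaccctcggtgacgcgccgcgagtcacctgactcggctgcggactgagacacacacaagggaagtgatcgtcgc
Atg5: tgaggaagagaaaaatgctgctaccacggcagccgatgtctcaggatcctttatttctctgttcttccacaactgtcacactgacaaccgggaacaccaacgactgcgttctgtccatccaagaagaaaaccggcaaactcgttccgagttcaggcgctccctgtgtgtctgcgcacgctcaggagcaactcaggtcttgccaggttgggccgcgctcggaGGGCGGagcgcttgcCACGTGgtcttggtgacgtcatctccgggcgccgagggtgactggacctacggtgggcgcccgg
Promoters were matched for 29 of the 35 genes. GGGCGG, the core of the GC box, stood in the promoters of 19 of the 29 genes (65.5%), against 35.7% of all 32851 promoters in the RefSeq table. CACGTG, the core letters of the E-box that Tfeb and many other factors bind, stood in those of 4 genes, Atg14, Atg3, Atg5 and Atg7 (13.8%, against 7.15% of all promoters). The longer element of lysosomal genes that Tfeb binds, CACGTG with GT before it and AC after it, was in none of the 29 (0.326% of all promoters). CCGGAAG, the letters of an ETS site, was found for Atg101, Atg3 and Gabarapl2 (10.3%, against 8.86% of all), and CCAAT for 8 genes (27.6%, against 37.4% of all). These percentages count autophagy genes with a match in any of their promoters, while those of all count single promoters. Counted by promoter, GGGCGG stood in 21 of 33, CACGTG in 4, CCGGAAG in 3 and CCAAT in 8. The motifs were searched on both strands, and a match describes letters and not binding.

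Most of the machinery was present at the 2-cell stage. Levels are given as CPM, counts scaled to a common library total after correction with TMM factors. Over all 9 libraries, 4 genes averaged at least 100 CPM (Atg5, Gabarapl2, Map1lc3b and Rb1cc1), 14 averaged 10 to 100 CPM, 14 averaged 1 to 10 CPM, and Atg16l2, Atg9b and Gabarapl1 averaged under 1 CPM. Genes are compared with each other per kilobase of exon, which assumes even coverage of all exons, and this was not tested. On that scale Gabarapl2 stood at 150.2 CPM per kb, Map1lc3b at 119.9 and Atg5 at 113.1. Next came Gabarap at 26.2 CPM per kb, Map1lc3a at 25.9, Rb1cc1 at 23.2, Atg10 at 21.8 and Becn1 at 11.1. The median of the 35 genes was 1.73 CPM per kb. Measured on the longest transcript in place of all exons, Map1lc3b came first at 217.8 CPM per kb and Gabarapl2 second at 208.3. Rb1cc1 moved from rank 6 to rank 4, at 44.7 CPM per kb. In the low part of the order stood the 4 ATG4 proteases, between 0.555 CPM per kb for Atg4d and 0.908 for Atg4a, Tfeb at 0.670 and Sqstm1 at 1.39.

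**Figure D1:**
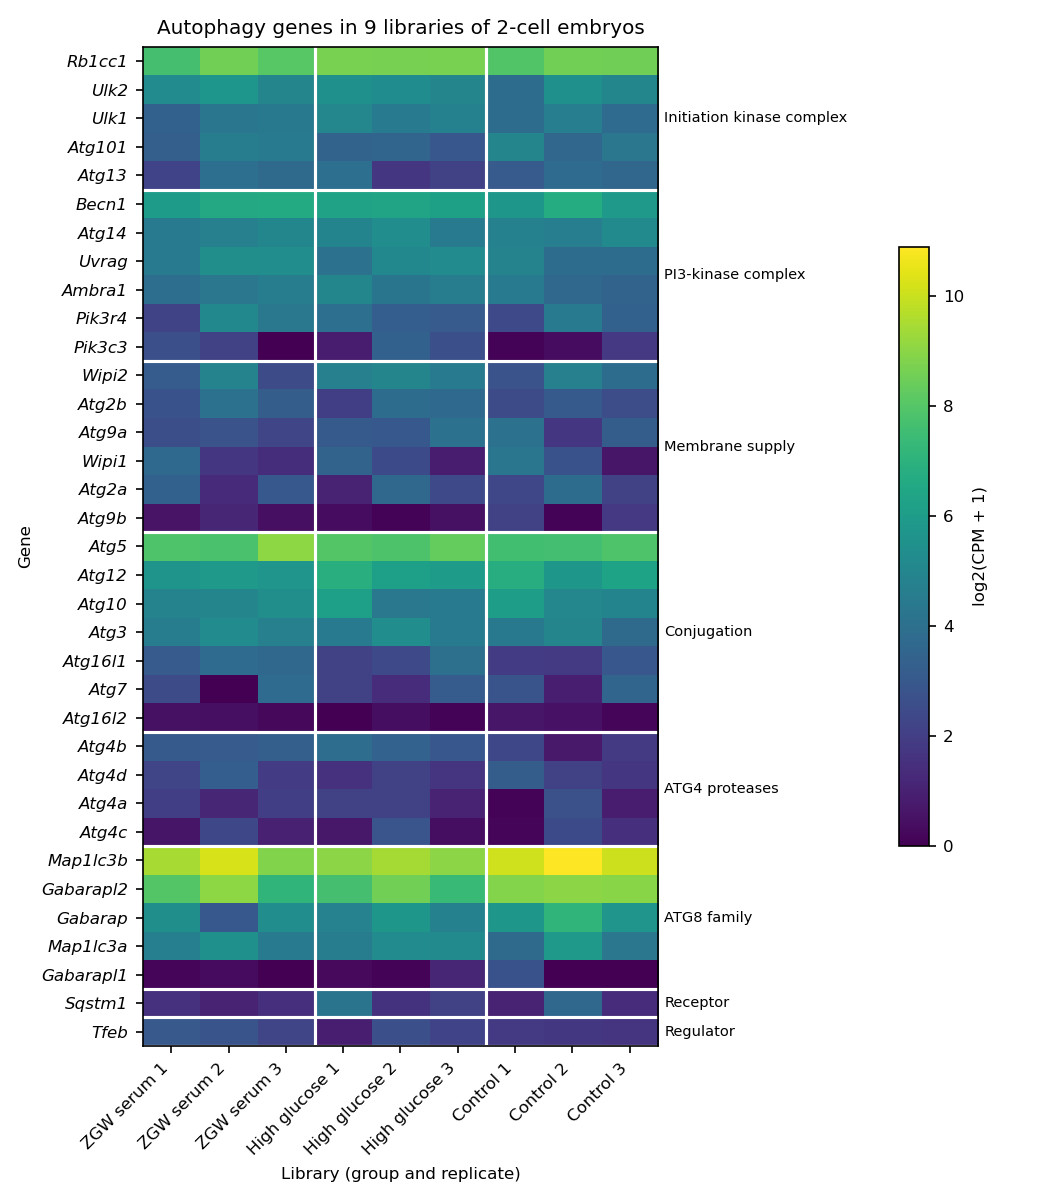
Level of each of the 35 autophagy genes in each library, as log2(CPM + 1), with genes grouped by role and ordered by mean level within a role. Map1lc3b, Gabarapl2, Atg5 and Rb1cc1 are bright in all 9 libraries, while Atg16l2, Atg9b and Gabarapl1 are near 0 in most of them.

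Library totals were between 11934924 and 16916343 counts. At that depth 15 of the 35 genes had over 100 counts in every library and 9 had under 10 counts in some library. Control replicate 1 and ZGW serum replicate 3 had the lowest median correlations with libraries of the other groups (0.802 and 0.803). High glucose replicate 1 came close at 0.812, and the remaining libraries were between 0.831 and 0.844. The 2-cell stage was visible in its own transcripts: the 9 of 10 listed 2-cell markers found in the table all averaged at least 10 CPM and summed to 2467 to 3896 CPM with ZGW serum, 5276 to 9706 CPM under high glucose and 3405 to 7822 CPM in control. ZGW serum thus lay below high glucose without overlap in this sum, and 8 of the 9 markers were lower. The part of this in the autophagy values was not tested. Cumulus and granulosa markers, from cells that surround the oocyte, summed to 13.5 to 26.0 CPM with ZGW serum, 8.32 to 20.9 CPM under high glucose and 16.3 to 37.1 CPM in control. None of those 12 genes averaged 10 CPM, Fshr was at 0 in all ZGW serum libraries, and Ptx3 was at 0 in all control libraries.

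No autophagy gene passed the test in any comparison. By the quasi-likelihood test of edgeR, with p-values adjusted over all 16964 genes with enough counts, 0 of 33 genes were called between ZGW serum and high glucose, between high glucose and control, and between ZGW serum and control, and 0% of all genes were called in each. At an unadjusted p under 0.05, edgeR gave 0 of 33 autophagy genes between ZGW serum and high glucose, where it gave 8.68% of all genes (3.8% higher and 4.89% lower). Between high glucose and control it gave 3, Atg4b higher and Map1lc3b and Atg9b lower under high glucose, where it gave 7.39% of all genes (3.88% higher and 3.5% lower). Set against control, ZGW serum gave 2, Atg4b higher and Gabarap lower, where edgeR gave 9.86% of all genes (4.21% higher and 5.65% lower). DESeq2 called 0 autophagy genes in each comparison. It called 1.5%, 0.743% and 2.11% of the 16090, 16419 and 15762 genes to which it gave an adjusted p, in the order just given. For limma-voom it was 0 autophagy genes and 0%, 0% and 0.00589% of all genes. The 3 comparisons share libraries pairwise and are not independent of each other. The values below therefore describe these libraries, and a difference that did not pass is not shown to be absent.

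The ATG8 family held the lowest p-value of the list, for Map1lc3b under high glucose. Map1lc3b encodes LC3B, the ATG8 protein most often used to mark autophagosomes, and lies on chromosome 8 at 121590361 to 121598760 (GRCm38, plus strand). It had 695, 1191 and 446 CPM with ZGW serum, 512, 694 and 511 CPM under high glucose, and 1094, 1893 and 1075 CPM in control (replicates 1, 2 and 3, an order kept below). All 3 high glucose libraries lay below all 3 control libraries, and the ZGW serum libraries overlapped each of the other groups. The fitted log2 difference between high glucose and control was -1.24 ± 0.37 (SE), with an unadjusted edgeR p of 0.00669 and an adjusted p of 0.627. Over the alternative analyses of this difference the adjusted p was between 0.0987 (DESeq2) and 0.845, and with each library left out in turn the log2 difference was between -1.43 and -0.92. Without control replicate 1 and ZGW serum replicate 3 it was -1.38. Relative to control, ZGW serum gave a log2 difference of -0.80 ± 0.37 (edgeR adjusted p = 0.511), which was -1.28 without ZGW serum replicate 2 and -0.48 without control replicate 2. Between ZGW serum and high glucose it was 0.44 ± 0.37 (edgeR adjusted p = 0.784), and -0.0012 without ZGW serum replicate 2. In pooled embryos, fewer cells that express a gene and less of its RNA per cell cannot be told apart.

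The summed level of oocyte markers, though not the markers gene by gene, was also lower under high glucose than in control. The sum over 10 markers was 16737 to 42039 CPM with ZGW serum, 13013 to 18029 CPM under high glucose and 19135 to 27297 CPM in control, so that high glucose lay below control without overlap. Of these 10 genes, 5 were higher and 5 lower under high glucose than in control, and their part in the Map1lc3b difference was not tested. A further limit is the sequence itself: Map1lc3b overlaps exons of a gene on the opposite strand, the strand setting of the counts is not given, and 6.01% of its 50-base stretches occur in another gene.

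Gabarapl2, a GABARAP-family protein that acts late in autophagosome formation and in Golgi transport, lies on the same chromosome at 111940703 to 111953612 (GRCm38, plus strand). It had 253, 529 and 138 CPM with ZGW serum, 206, 379 and 167 CPM under high glucose, and 466, 506 and 500 CPM in control. Control libraries were close together and above all high glucose libraries, while ZGW serum spanned both of them. The log2 difference was -0.97 ± 0.45 between high glucose and control (edgeR adjusted p = 0.688), -0.68 ± 0.45 between ZGW serum and control (edgeR adjusted p = 0.654), and 0.29 ± 0.45 between ZGW serum and high glucose (edgeR adjusted p = 0.901). Without ZGW serum replicate 2, the highest library of its group, ZGW serum stood at -1.36 relative to control and at -0.35 relative to high glucose. Its counts are uncertain, since 12.2% of its 50-base stretches also occur in pseudogene transcripts.

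Gabarap, the founding member of that family, had 41.8, 7.02 and 38.9 CPM with ZGW serum, 27.2, 53.7 and 26.4 CPM under high glucose, and 52.8, 138 and 49.8 CPM in control. The ZGW serum libraries were all below the control libraries, whereas 1 high glucose library lay within the control range. Its log2 difference was -1.46 ± 0.65 between ZGW serum and control (edgeR adjusted p = 0.501) and -0.81 without control replicate 2. Between high glucose and control it was -1.16 ± 0.65 (edgeR adjusted p = 0.737) and -0.52 without control replicate 2.

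Map1lc3a, the LC3A gene, did not follow the same order. It had 24.8, 43.2 and 22.1 CPM with ZGW serum, 23.3, 37.3 and 35.7 CPM under high glucose, and 12.6, 57.9 and 18.9 CPM in control, so that the control libraries enclosed all the others. Its log2 difference from control was 0.01 ± 0.56 with ZGW serum and 0.11 ± 0.56 under high glucose, with edgeR adjusted p-values of 0.996 and 0.981. Gabarapl1 was close to undetected and was not tested: 0.158, 0.266 and 0 CPM with ZGW serum, 0.227, 0.0770 and 1.22 CPM under high glucose, and 5.62, 0 and 0 CPM in control. Its 0 values allow up to 0.267 CPM in ZGW serum replicate 3, 0.224 CPM in control replicate 2 and 0.219 CPM in control replicate 3 (the limit of 3 counts, for counting error only). The control value of this gene came from replicate 1 alone. Summed over its 5 genes, the ATG8 family had 1144 ± 574 CPM with ZGW serum, 891 ± 237 CPM under high glucose and 1956 ± 552 CPM in control (SD, n = 3 each). The median log2 difference of its 4 tested genes was -1.07 between high glucose and control, against 0.17 for all 33 tested autophagy genes and -0.02 for all 16964 genes. In that comparison log2 differences rose with transcript length over 16245 genes (Spearman rank correlation 0.173). A smooth trend on length stood at -0.20 for Gabarap, -0.14 for Gabarapl2, -0.25 for Map1lc3a and 0.07 for Map1lc3b. The part of length in the family median was not tested.

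**Figure D2:**
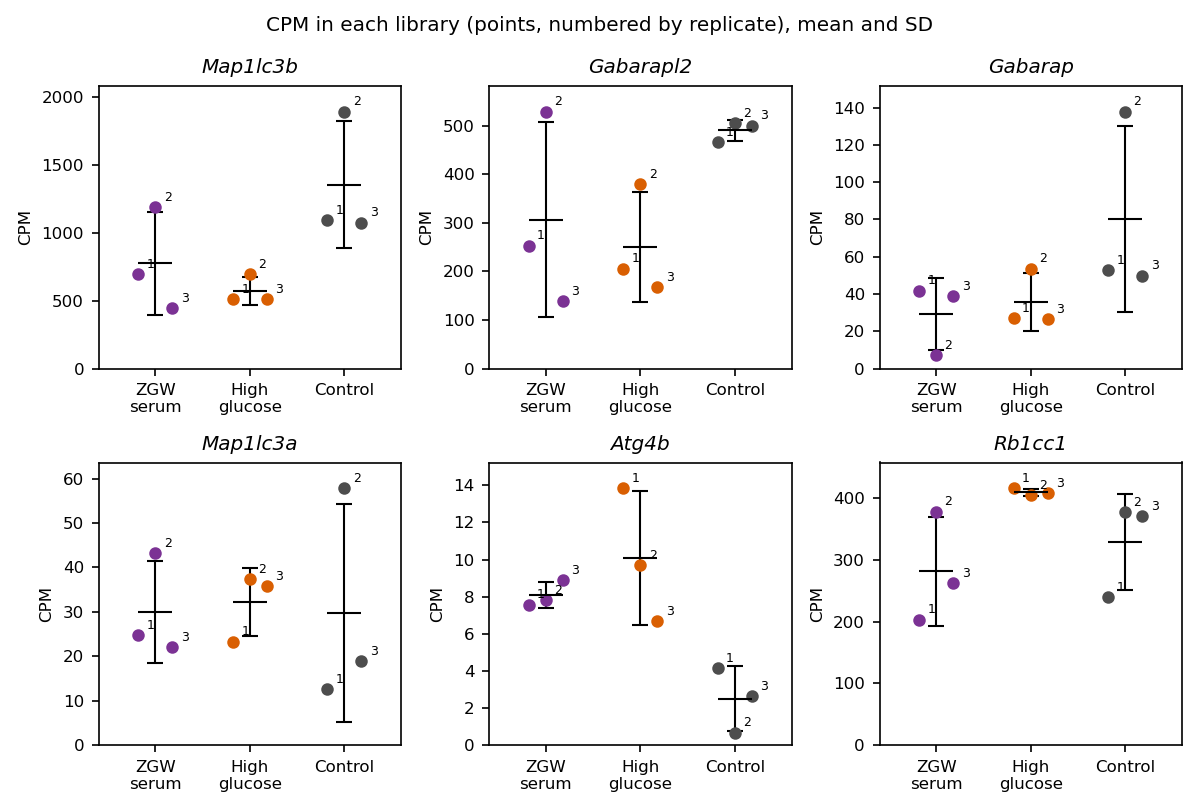
Level in CPM of 4 ATG8 genes (Map1lc3b, Gabarapl2, Gabarap, Map1lc3a), the protease gene Atg4b and the initiation scaffold Rb1cc1 in each library. Points are libraries, numbered by replicate, and bars give the mean and SD of 3 libraries. High glucose lies below control without overlap for Map1lc3b and Gabarapl2 and above it for Atg4b and Rb1cc1, and none of these differences passed edgeR's test.

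The ATG4 proteases trim new ATG8 proteins for conjugation and later release them from lipid. Atg4b, the main protease for LC3B, is described here because its values stood out when they were seen. It had 7.58, 7.82 and 8.89 CPM with ZGW serum, 13.9, 9.70 and 6.69 CPM under high glucose, and 4.16, 0.671 and 2.63 CPM in control. Every library of both glucose-loaded groups was above every control library, and the control values rested on few counts (57, 9 and 36). The log2 difference from control was 2.01 ± 0.76 under high glucose (edgeR unadjusted p = 0.0222, adjusted p = 0.627) and 1.70 ± 0.75 with ZGW serum (edgeR unadjusted p = 0.0448, adjusted p = 0.495). These comparisons share the control libraries. Atg4a, Atg4c and Atg4d lay between 0.0730 CPM for Atg4a in control replicate 1 and 8.40 CPM for Atg4d in ZGW serum replicate 2, and each overlapped between all groups. Most of the Atg4a sequence is not its own: 51.2% of its 50-base stretches also occur in a pseudogene or another gene, so its counts are uncertain.

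Among the initiation genes, Rb1cc1 encodes FIP200, the scaffold of the kinase complex, on chromosome 1 at 6206197 to 6276648 (GRCm38, plus strand). It had 203, 378 and 263 CPM with ZGW serum, 416, 405 and 408 CPM under high glucose, and 240, 378 and 371 CPM in control. The high glucose libraries were nearly equal and lay above all libraries of the other groups, though only slightly above the highest of them. The log2 difference was -0.54 ± 0.28 between ZGW serum and high glucose (edgeR adjusted p = 0.621) and 0.32 ± 0.28 between high glucose and control (edgeR adjusted p = 0.857).

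Ulk1, the kinase that starts autophagy when nutrients are short, had 9.39, 18.6 and 20.4 CPM with ZGW serum, 31.6, 21.2 and 26.6 CPM under high glucose, and 13.5, 23.9 and 12.9 CPM in control. All ZGW serum libraries were below all high glucose libraries, with a log2 difference of -0.72 ± 0.47 (edgeR adjusted p = 0.709), and control overlapped both. Its relative Ulk2 had 37.1, 51.2 and 29.6 CPM with ZGW serum, 42.8, 38.4 and 30.3 CPM under high glucose, and 13.2, 43.2 and 30.5 CPM in control, and all groups overlapped. Atg101, a subunit that stabilises Atg13 in the complex, had 8.92, 23.4 and 20.7 CPM with ZGW serum, 9.99, 10.8 and 6.85 CPM under high glucose, and 30.2, 11.2 and 18.6 CPM in control. High glucose lay below control without overlap, by -1.12 ± 0.56 on the log2 scale (edgeR adjusted p = 0.704), and the highest of its libraries was close to the lowest of control. ZGW serum overlapped both, at 0.94 ± 0.56 relative to high glucose (edgeR adjusted p = 0.678). Atg13 itself was between 2.31 and 14.7 CPM over the 9 libraries and overlapped between all groups.

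In the lipid kinase complex, Becn1 encodes Beclin 1, its scaffold. It had 63.9, 93.5 and 100.3 CPM with ZGW serum, 76.1, 80.8 and 72.0 CPM under high glucose, and 52.6, 107 and 59.1 CPM in control. The groups overlapped throughout, with log2 differences of 0.17 ± 0.33 between ZGW serum and high glucose and 0.06 ± 0.33 between high glucose and control (edgeR adjusted p of 0.924 and 0.982). Its counts are uncertain: 36.8% of its 50-base stretches also occur in other genes, mainly on exons that overlap Cntd1, itself at 70.2 CPM with ZGW serum, 58.1 CPM under high glucose and 53.7 CPM in control on average.

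Uvrag, which takes the place of Atg14 in the form of the complex that acts on endosomes, had 21.2, 40.1 and 40.0 CPM with ZGW serum, 16.2, 32.8 and 37.0 CPM under high glucose, and 28.2, 13.6 and 13.2 CPM in control. Control replicate 1 lay within the range of the other groups and the other control libraries lay below it, and the log2 difference from control was 0.88 ± 0.49 with ZGW serum and 0.64 ± 0.49 under high glucose (edgeR adjusted p of 0.585 and 0.816). Ambra1, a protein that links the initiation and lipid kinase complexes, had 14.3, 18.7 and 22.7 CPM with ZGW serum, 30.6, 17.8 and 23.6 CPM under high glucose, and 21.7, 11.6 and 10.01 CPM in control. Between high glucose and control its log2 difference was 0.73 ± 0.47 (edgeR adjusted p = 0.776), with overlap. Pik3r4, the regulatory subunit, had 3.71, 33.2 and 19.4 CPM with ZGW serum, 14.5, 8.47 and 7.83 CPM under high glucose, and 4.31, 21.2 and 9.43 CPM in control. All groups overlapped. Atg14, which directs the complex to the autophagosome, was between 21.1 and 39.1 CPM, and Pik3c3, the catalytic subunit, between 0 and 9.47 CPM. The 0 of Pik3c3, in ZGW serum replicate 3, allows up to 0.267 CPM. Of the 6 genes of this complex, 5 had log2 differences above 0 with ZGW serum against control and 5 under high glucose against control, where 8486 and 8318 of 16964 genes did. Under high glucose these included Becn1 at 0.06, which was -0.13 without control replicate 1, and Atg14 at 0.04, which was -0.23 without high glucose replicate 2. No gene of the 6 passed the test.

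Of the genes that supply membrane, Wipi2, which reads the lipid mark and recruits Atg16l1, had 7.89, 28.5 and 4.53 CPM with ZGW serum, 25.6, 30.02 and 22.3 CPM under high glucose, and 5.91, 25.7 and 13.5 CPM in control. ZGW serum replicate 2 lay among the high glucose libraries, and the other ZGW serum libraries lay below them. The log2 difference between ZGW serum and high glucose was -0.93 ± 0.72 (edgeR adjusted p = 0.766) and -2.06 without ZGW serum replicate 2. Wipi1, Atg2a, Atg2b, Atg9a and Atg9b were all low, between 0.0746 CPM for Atg9b in control replicate 2 and 18.5 CPM for Wipi1 in control replicate 1. Atg9a, a lipid scramblase carried on vesicles, was the one of these 5 whose groups did not overlap in a comparison, and it is given after its values were seen. It had 5.05, 5.80 and 3.82 CPM with ZGW serum, 7.42, 7.08 and 15.8 CPM under high glucose, and 15.8, 2.31 and 8.19 CPM in control. The log2 difference between ZGW serum and high glucose was -1.05 ± 0.76 (edgeR adjusted p = 0.743). Its relative Atg9b, also taken after its values were seen, had 0.474, 1.22 and 0.356 CPM with ZGW serum, 0.303, 0.0770 and 0.408 CPM under high glucose, and 3.28, 0.0746 and 2.49 CPM in control. With a mean under 1 CPM and control replicate 2 at the bottom of the range, its log2 difference of -2.85 ± 1.22 between high glucose and control rested on few counts (edgeR unadjusted p = 0.0395, adjusted p = 0.672).

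In the conjugation system, Atg5 and Atg12 encode the joined pair that directs ATG8 proteins to membrane. Atg5 had 233, 215 and 529 CPM with ZGW serum, 253, 230 and 315 CPM under high glucose, and 191, 196 and 234 CPM in control. ZGW serum replicate 3 stood far above the other 8 libraries, which were close together. The log2 difference between ZGW serum and control was 0.65 ± 0.35 (edgeR adjusted p = 0.564) and 0.14 without that library. Atg12 had 48.1, 56.4 and 50.5 CPM with ZGW serum, 116, 70.5 and 62.5 CPM under high glucose, and 108, 53.5 and 78.4 CPM in control. The ZGW serum libraries were close together, below all high glucose libraries and within reach of the lowest control library. Its log2 difference was -0.69 ± 0.35 between ZGW serum and high glucose (edgeR adjusted p = 0.612) and -0.63 ± 0.35 between ZGW serum and control (edgeR adjusted p = 0.582). Atg5, at 0.29 ± 0.34 between ZGW serum and high glucose (edgeR adjusted p = 0.861), was -0.22 without ZGW serum replicate 3.

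Atg3, the enzyme that hands ATG8 proteins to lipid, had 23.4, 37.4 and 25.4 CPM with ZGW serum, 21.7, 39.8 and 21.0 CPM under high glucose, and 19.99, 29.8 and 12.7 CPM in control. Its groups all overlapped. Atg10, the matching enzyme for Atg12, was between 19.6 and 68.8 CPM, and Atg7, the activating enzyme of both reactions, between 0 and 13.1 CPM. The 0 of Atg7, in ZGW serum replicate 2, allows up to 0.160 CPM. Atg16l1, which binds the Atg5 and Atg12 pair and is given after its values were seen, had 7.81, 12.9 and 11.4 CPM with ZGW serum, 3.25, 4.23 and 15.3 CPM under high glucose, and 2.85, 2.61 and 6.72 CPM in control. ZGW serum lay above control without overlap, at 1.40 ± 0.77 on the log2 scale (edgeR adjusted p = 0.585). Its relative Atg16l2 was at most 0.584 CPM in any library and was not tested, and its 0 in high glucose replicate 1 allows up to 0.227 CPM.

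Sqstm1 encodes p62, the receptor that carries ubiquitin-tagged cargo and is itself degraded by autophagy. It had 1.89, 1.12 and 1.87 CPM with ZGW serum, 17.5, 2.00 and 3.34 CPM under high glucose, and 1.09, 11.6 and 1.61 CPM in control. High glucose replicate 1 and control replicate 2 stood far above the remaining libraries. The log2 difference between ZGW serum and high glucose was -2.22 ± 1.14 (edgeR adjusted p = 0.617) and -0.72 without high glucose replicate 1. Its sequence is shared at 15.5% with Mrnip on the opposite strand, so its counts are uncertain. Tfeb, the transcription factor that switches on lysosomal and autophagy genes, had 7.18, 6.17 and 3.82 CPM with ZGW serum, 0.908, 5.39 and 3.59 CPM under high glucose, and 2.63, 2.39 and 2.12 CPM in control. ZGW serum lay above control without overlap, by 1.27 ± 0.81 on the log2 scale (edgeR adjusted p = 0.635), and high glucose overlapped both.

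**Figure D3:**
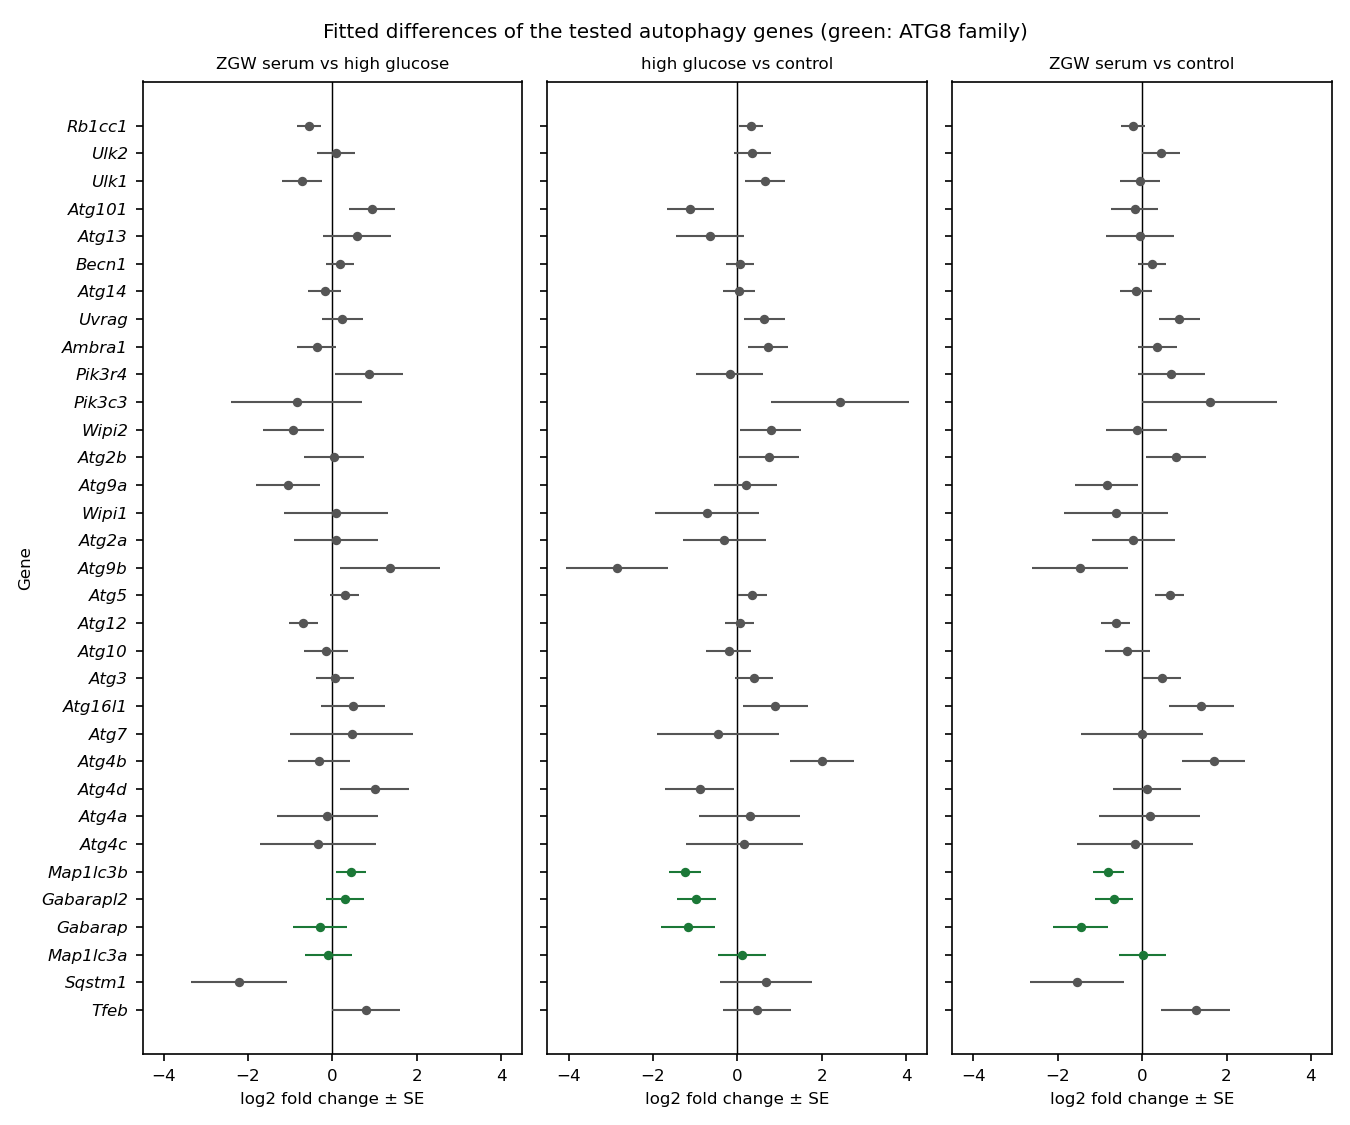
Fitted log2 fold change with its standard error (x axis) for the 33 tested autophagy genes in the 3 comparisons, with the ATG8 family in green. Points right of 0 are higher in the first group of a panel's title. Map1lc3b, Gabarapl2 and Gabarap lie left of 0 in both comparisons with control and Atg4b lies right of it, and no point passed edgeR's adjusted threshold.

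Across the list, the groups separated about as often as for other genes. With ZGW serum against high glucose, 5 of 33 genes did not overlap, all lower with ZGW serum (Atg12, Atg9a, Rb1cc1, Sqstm1 and Ulk1), against 17.3% of all genes (9.08% higher and 8.26% lower). Between high glucose and control, 5 of 33 did not overlap, Atg4b and Rb1cc1 higher and Atg101, Gabarapl2 and Map1lc3b lower under high glucose, against 13.7% of all genes (6.84% higher and 6.91% lower). With ZGW serum against control, 4 of 33 did not overlap, Atg16l1, Atg4b and Tfeb higher and Gabarap lower with ZGW serum, against 16.3% of all genes (9.02% higher and 7.3% lower). The median log2 difference of the 33 genes was 0.06 between ZGW serum and high glucose, 0.17 between high glucose and control and -0.06 between ZGW serum and control, where all genes had 0.00, -0.02 and 0.00. Higher and lower genes numbered 18 and 15 between ZGW serum and high glucose, 21 and 12 between high glucose and control, and 15 and 18 between ZGW serum and control. The median coefficient of variation within groups was 30.6% for the 4 autophagy genes of at least 100 CPM, against 24.3% for all 1619 genes of that level. At 10 to 100 CPM it was 36.7% for 14 autophagy genes and 38% for all 5916 genes, and under 10 CPM it was 73% for 15 autophagy genes and 67.3% for all 9429 genes.

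Within the autophagy transcripts, the ATG8 share was lower in both glucose-loaded groups than in control, and the Rb1cc1 share was higher under high glucose than in the other groups. The 35 genes took 0.232% ± 0.079 of all counts with ZGW serum, 0.204% ± 0.030 under high glucose and 0.287% ± 0.059 in control (SD, n = 3 each). High glucose lay below control without overlap in this total, and ZGW serum overlapped both. Within these counts, the ATG8 family held 55.9%, 60.9% and 33.6% with ZGW serum, 38.4%, 50.8% and 39.0% under high glucose, and 64.5%, 71.3% and 62.4% in control. All libraries of both glucose-loaded groups were thus below all control libraries in this share. In CPM the ATG8 sum overlapped between ZGW serum and control. ZGW serum replicate 2 had 1771 CPM, above control replicates 1 and 3 at 1631 and 1644 CPM. Map1lc3b alone held 34.2% ± 9.59 with ZGW serum, 27.6% ± 2.43 under high glucose and 45.3% ± 5.90 in control. Rb1cc1 held 11.2%, 13.0% and 13.7% with ZGW serum, 20.8%, 17.7% and 21.5% under high glucose, and 9.47%, 10.4% and 14.1% in control, with high glucose above the other groups and no overlap. Without the ATG8 family, the remaining genes summed to 1072 ± 244 CPM with ZGW serum, 1174 ± 54.5 CPM under high glucose and 978 ± 73.4 CPM in control (SD, n = 3 each). Shares of the same total are not independent, since a lower ATG8 share raises the shares of the other genes. In CPM, the log2 difference of Rb1cc1 between high glucose and control was 0.32 ± 0.28 (edgeR adjusted p = 0.857). No test was made on these shares, which were examined with the gene values known.

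**Figure D4:**
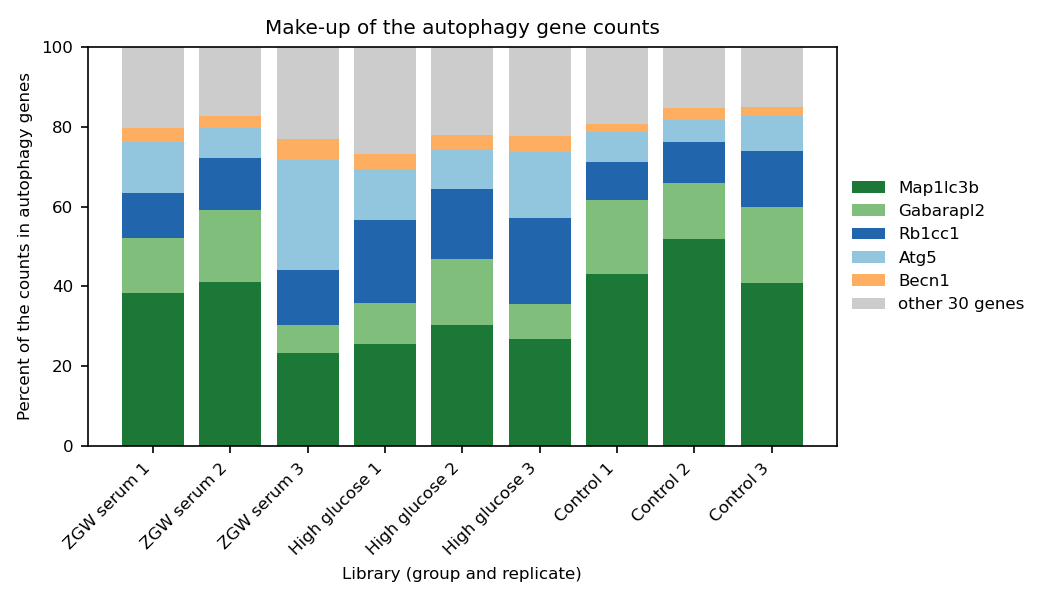
Share of the counts in the 35 autophagy genes that fell on each of 5 genes and on the other 30, in percent, for each library. Map1lc3b and Gabarapl2 together fill most of each control bar, and the Rb1cc1 band is widest in the 3 high glucose bars.

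Genes around the machinery were read from a list of lysosome, fusion, cargo receptor, early membrane, transcription factor, mTORC1 and AMPK genes. Of the 105 symbols listed, 100 were in the table and tested, and edgeR called 0 of them in each comparison. At an unadjusted edgeR p under 0.05 there were 8 of 100 between ZGW serum and high glucose (3 higher and 5 lower), against 8.68% of all genes (3.8% higher and 4.89% lower). Between high glucose and control there were 6 of 100 (5 higher and 1 lower), against 7.39% of all genes (3.88% higher and 3.5% lower). With ZGW serum against control there were 11 of 100 (1 higher and 10 lower), against 9.86% of all genes (4.21% higher and 5.65% lower). The median log2 difference was -0.10 between ZGW serum and high glucose, 0.01 between high glucose and control and -0.05 between ZGW serum and control.

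Lamp2, a lysosomal membrane protein needed for fusion with autophagosomes, had 23.3, 37.1 and 14.05 CPM with ZGW serum, 10.4, 14.3 and 6.04 CPM under high glucose, and 24.1, 61.8 and 26.8 CPM in control. High glucose lay below control without overlap, by -1.87 ± 0.56 on the log2 scale (edgeR adjusted p = 0.627), and ZGW serum overlapped both. Atp6v1c1, a subunit of the proton pump that acidifies lysosomes, had 65.7, 39.2 and 75.9 CPM with ZGW serum, 186, 139 and 149 CPM under high glucose, and 65.2, 114 and 95.3 CPM in control. ZGW serum lay below high glucose and high glucose above control, each without overlap. The log2 difference between ZGW serum and high glucose was -1.39 ± 0.33 (edgeR adjusted p = 0.37, DESeq2 adjusted p = 0.0163). Another pump subunit, Atp6v1f, ran the other way at 0.94 ± 0.33 (edgeR adjusted p = 0.506), and Atp6v1d was lower with ZGW serum than in control by -1.03 ± 0.35 (edgeR adjusted p = 0.413).

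Of the mTORC1 genes, whose complex holds Ulk1 inactive when nutrients are plentiful, Lamtor2, a part of its lysosomal anchor, had 110, 120 and 188 CPM with ZGW serum, 47.8, 60.6 and 78.9 CPM under high glucose, and 67.1, 103 and 88.2 CPM in control. ZGW serum was above both other groups without overlap, with a log2 difference from high glucose of 1.16 ± 0.32 (edgeR adjusted p = 0.418) and from control of 0.70 ± 0.32 (edgeR adjusted p = 0.508). Deptor, an inhibitor within the mTOR complexes, had 105, 127 and 106 CPM with ZGW serum, 133, 95.5 and 101 CPM under high glucose, and 52.5, 51.0 and 83.5 CPM in control. Both glucose-loaded groups lay above control without overlap, by 0.85 ± 0.29 with ZGW serum and 0.82 ± 0.29 under high glucose (edgeR adjusted p of 0.416 and 0.627). Among cargo receptors, the mitochondrial receptor Bnip3l had 111, 122 and 180 CPM with ZGW serum, 289, 209 and 274 CPM under high glucose, and 269, 213 and 193 CPM in control. ZGW serum was below both other groups without overlap, at -0.90 ± 0.27 relative to high glucose (edgeR adjusted p = 0.465). Fundc1, another mitochondrial receptor, was lower under high glucose than in control by -0.48 ± 0.26 with overlap (edgeR adjusted p = 0.726). Nrbf2, a partner of the lipid kinase complex, was higher under high glucose than in control, at 34.5 ± 19.4 CPM and 10.4 ± 1.90 CPM (SD, n = 3 each), with a log2 difference of 1.73 ± 0.64 (edgeR adjusted p = 0.627).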

How the data were processed

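Raw counts per gene symbol, whole numbers with no normalisation, were deposited by the authors for all 9 libraries. Per the submitters' processing notes, the tools include Trim Galore and the build is mm10. Which aligner, counting tool and strand setting were chosen is not given in the sources used here. Groups came from the labels. All 9 libraries entered 1 fit with a mean per group in edgeR 4.0.16 (R 4.3.3), with TMM factors, filterByExpr at a minimum of 10 counts and the robust quasi-likelihood test. P-values were adjusted by Benjamini-Hochberg over 16964 genes, with a threshold of 0.05. The standard error is the log2 fold change divided by the root of the test's F value. CPM are counts relative to the TMM-scaled library total. The test was tested on simulated data.

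The genes and lists were chosen with earlier results of these data known, so no test of the list as a whole was made. Values by library are given for the 4 genes of lowest p-value in each direction and comparison among genes that average 10 CPM or more, and for the ATG8 genes, Sqstm1, Tfeb, Becn1 and Ulk1. Others are named as chosen after their values were seen. Of the wider pathway list, the 2 genes of lowest p-value in each direction and comparison with the same minimum are named.

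Positions and lengths came from GENCODE M21 (GRCm38, the assembly behind mm10), for 35 of 35 symbols. Shared sequence is the share of a gene's stretches of 50 bases found in transcripts of other genes, on either strand. It was over 10% for 8 genes (Atg4a, Atg4d, Atg9a, Becn1, Gabarapl1, Gabarapl2, Sqstm1 and Uvrag), and exons of 12 genes overlap a gene on the opposite strand, so counts of these genes are uncertain. Replicates of a group differed by more than sampling noise (chi-square per degree of freedom 50.9 to 136). The alternatives replaced TMM by RLE, edgeR by DESeq2 1.42.0 or limma-voom (limma 3.58.1), the filter by none or by 10 counts in 6 libraries, and the joint fit by fits of 2 groups or a replicate block. The limma-voom fit also estimated a quality weight for each library. Each library was also left out in turn, as were the 2 libraries least like the rest. Subtraction of the trend on transcript length was added after the data were seen.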

Additional observations from a re-analysis of the deposited data

How the results depend on the processing

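No autophagy gene was called under any of the 17 alternative tests in any comparison, and 308, 308 and 305 of 324 alternative values of the named genes kept their direction and, wherever an alternative gave an adjusted p (subtraction of the length trend gives none), their side of the threshold between ZGW serum and high glucose, high glucose and control, and ZGW serum and control. DESeq2 called 1 other pathway gene between ZGW serum and high glucose (Atp6v1c1) and 1 between ZGW serum and control (Ctsa, adjusted p = 0.0183). The median level was 2.75 CPM per kb on the longest transcript against 1.73. The median log2 difference of the list between high glucose and control was 0.35 with the replicate block, and with each library left out it was -0.13 to 0.11 between ZGW serum and high glucose, -0.00070 to 0.46 between high glucose and control and -0.25 to 0.27 between ZGW serum and control. Same-numbered libraries of different groups correlated at -0.0065 to 0.104 in their deviations from group means, and differently numbered libraries at -0.095 to 0.0458. In each group replicate 2 had the highest ATG8 share (60.9% with ZGW serum, 50.8% under high glucose, 71.3% in control). These correlations, taken over all genes tested, cannot decide whether the numbers pair libraries.

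Signs turned for some genes with control replicate 1 and ZGW serum replicate 3 both left out. Between ZGW serum and high glucose these were Atg5 (-0.21) and Map1lc3a (0.11). Between high glucose and control they were Becn1 (-0.13) and Map1lc3a (-0.27), and between ZGW serum and control Atg101 (0.14), Becn1 (-0.059) and Map1lc3a (-0.15). Between high glucose and control, signs also turned with the length trend subtracted for Atg12 (-0.030) and Becn1 (-0.015). In the same comparison the sign of Pik3r4 turned with the replicate block (0.30). Map1lc3a between ZGW serum and control was -0.0288 with RLE, -0.0332 without a filter and -0.0289 by DESeq2. With each library left out, the log2 differences that turned ran as follows. Between ZGW serum and high glucose they were -0.17 to 0.42 for Atg3, -0.22 to 0.52 for Atg5, -0.65 to 0.18 for Gabarap, -0.35 to 0.71 for Gabarapl2, -0.45 to 0.11 for Map1lc3a, -0.0012 to 0.75 for Map1lc3b, -0.16 to 0.27 for Ulk2 and -0.051 to 0.48 for Uvrag. Between high glucose and control they were -0.26 to 0.33 for Atg12, -0.13 to 0.45 for Becn1, -0.26 to 1.03 for Map1lc3a, -0.57 to 0.58 for Pik3r4, -0.83 to 2.49 for Sqstm1 and -0.12 to 0.92 for Tfeb. Between ZGW serum and control they were -0.47 to 0.24 for Atg101, -0.38 to 0.93 for Map1lc3a, -0.043 to 1.45 for Pik3r4, -2.02 to 0.26 for Sqstm1, -0.25 to 0.28 for Ulk1 and -1.30 to 0.49 for Wipi2. None of these differences was called, and the cause of each turn was not tested. Depth limits the 9 genes with under 10 counts in some library.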

Other observations

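Lysosome genes, the hydrolases, membrane proteins and proton pump subunits that autophagosomes deliver to, are given apart from the wider list after their values were seen. With ZGW serum against control 21 of 27 were lower (median log2 difference -0.40), where 8476 of 16964 genes were lower. Under high glucose against control 18 of 27 were lower (median -0.25), where 8646 of all genes were, and with ZGW serum against high glucose 15 of 27 were lower (median -0.03), where 8471 of all genes were. The comparisons share libraries, and edgeR called 0 of the 27 in each. In the other sets, ZGW serum was lower than control for 8 of 14 cargo receptors, 6 of 9 early membrane genes, 5 of 13 fusion genes, 3 of 6 transcription factors, 7 of 21 mTORC1 genes and 5 of 10 AMPK genes. Ctsa, a lysosomal carboxypeptidase, had 10.6, 6.01 and 4.18 CPM with ZGW serum, 19.4, 23.0 and 6.69 CPM under high glucose, and 49.7, 18.2 and 28.1 CPM in control. ZGW serum lay below control without overlap, by -2.21 ± 0.63 on the log2 scale (edgeR adjusted p = 0.401), and high glucose overlapped both. Blood markers summed to 324 to 531 CPM with ZGW serum, 86.4 to 309 CPM under high glucose and 237 to 367 CPM in control, and their part in the lysosome values was not tested. Of the 9 blood genes, only 3 averaged at least 10 CPM. Ptprc was at 0 in all high glucose and control libraries and Alas2 in all high glucose libraries. Markers of later embryos summed to 27.8 to 52.6 CPM with ZGW serum, 17.7 to 46.3 CPM under high glucose and 27.1 to 50.7 CPM in control. Only 1 of these 6 genes averaged at least 10 CPM.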
